A study of Homo sapiens with 36 samples.

Results

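Atirmociclib at 2 µM was compared with vehicle after 24 h in LNCaP, an established androgen-responsive line of human prostate cancer, by RNA sequencing of 3 treated and 3 vehicle cultures. These 6 libraries were taken by their sample labels from a series of 36 libraries in 12 groups, which also sampled atirmociclib at 1 µM, ribociclib at 2 µM and AU2-94 at both doses, with every condition taken at 24 h and 72 h. Cells for 24 h were plated more densely than those for 72 h, treatment began a day after plating, and the study describes the 3 cultures of a group as biological replicates. The labels give the vehicle a dose of 2 µM as well, whereas the study describes the vehicle without a dose. The question put to these libraries was how a CDK4 inhibitor alters the transcriptome of these cells, androgen response genes included. Since 1 cell line was used, the results describe LNCaP and no other prostate cancer cell.

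CDK4 is the kinase partner of the D-type cyclins. Together they phosphorylate the retinoblastoma protein RB in G1, which frees E2F transcription factors to switch on the genes of S phase, and the genes of mitosis follow later under the MuvB complex with B-MYB and FOXM1. Atirmociclib and AU2-94 are described by the study as CDK4-selective inhibitors, and ribociclib inhibits both CDK4 and CDK6. In the study's kinase assays atirmociclib also inhibited CDK6, CDK1, CDK2, CDK7 and CDK9, each more strongly than AU2-94 did. The study concludes that AU2-94 is the more selective of these for CDK4. Which kinase accounts for a change given below was not tested.

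The deposited values are normalised counts, scaled so that libraries can be compared. The totals after scaling ran from 21686783 to 22054249 in the treated libraries and from 20675156 to 20824457 in the vehicle libraries. Pearson correlations across the 16137 genes tested were 0.980 to 0.983 within the treated group and 0.982 to 0.985 within the vehicle group, against 0.962 to 0.968 between the groups. The 8 luminal prostate markers had gene means from 3172 to 23555 in vehicle, whereas of the 4 basal markers 3 stayed under 10 normalised counts in every library and the summed level was 5.29 to 21.3 in vehicle and 23.2 to 34.5 with atirmociclib. The 6 neuroendocrine markers summed to at most 36.8 and the 4 immune markers to at most 145 in any of these libraries. The 6 fibroblast markers were higher, with sums of 406 to 532 in vehicle and 298 to 354 with atirmociclib. The 3 endothelial markers summed to 258 to 395 in vehicle and 274 to 385 with atirmociclib. In bulk RNA, fewer cells of a kind and less RNA per cell cannot be told apart, and in the comparisons below this holds for the share of cycling cells.

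Calls required both an adjusted p no higher than 0.05 from limma and a log2 fold change of 1 or more in size. Atirmociclib at 2 µM left 203 genes called higher (1.26% of the genes tested) and 778 called lower (4.82%). Without the fold requirement 3001 genes were higher (18.6%) and 2608 lower (16.2%), so that slightly more genes rose than fell by this looser rule. The list counts against vehicle below use the looser rule, and these shares are their background. Falls of at least 4-fold were found in 254 called genes and rises of that size in 41. The called genes were 79.3% lower, a share that was 66.1% after quantile normalisation, where 303 were higher and 592 lower. The treated and vehicle libraries did not overlap in 755 of the 778 genes called lower and in 178 of the 203 called higher. The calls rest on these same libraries and favour such separation, so these counts describe the called genes and add no support. No share over all genes tested is given beside them. Of the called genes 20 of those lower were at the floor of 3 normalised counts in every treated library, and 13 of those higher were at it in every vehicle library, so their fitted fold changes are not bounds.

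**Figure D1:**
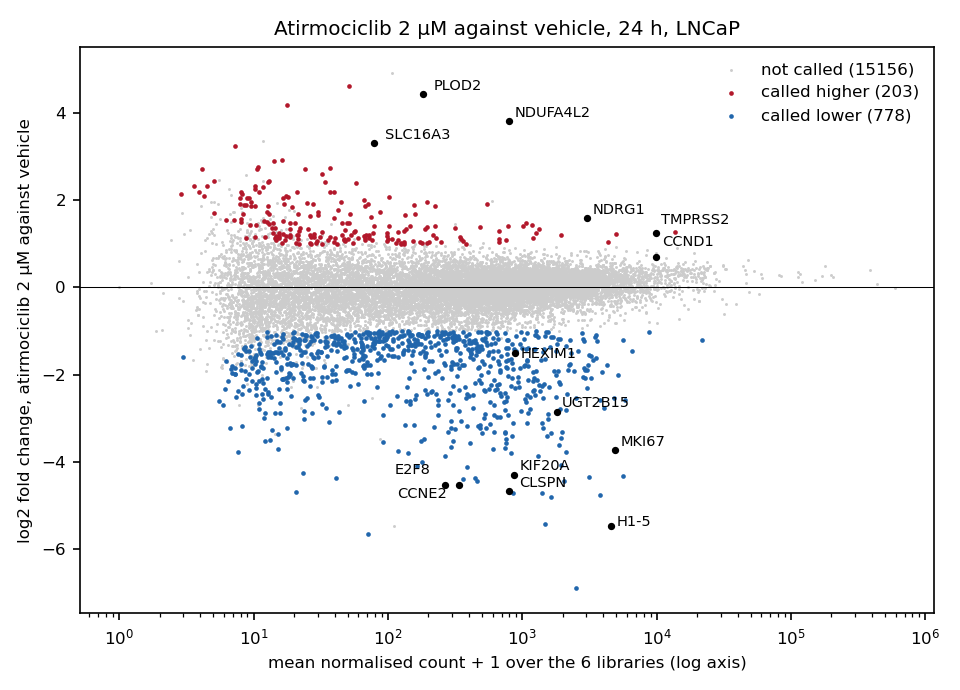
Log2 fold change of atirmociclib 2 µM against vehicle (vertical axis) by mean normalised count + 1 over the 6 libraries (horizontal log axis), 1 point per gene tested. The 778 genes called lower (blue) reach further from 0 than the 203 called higher (red), and black points mark genes named in the text.

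The kinase that the compound targets was itself steady at the level of RNA. CDK4 stood at 2415, 2490 and 2315 normalised counts in the treated libraries and at 2267, 2328 and 2410 in vehicle, so the groups overlapped and the log2 difference was 0.04 (adjusted p = 0.587). CDK6, its close relative, scattered from 45.3 to 159 with atirmociclib and from 31.0 to 185 with vehicle, and no difference could be read from it. CCND1, the D-type cyclin that activates CDK4, read 12842, 12218 and 11932 with treatment against 7440, 7547 and 7791. Every treated library was above every vehicle library, and CCND1 rose by a log2 fold change of 0.70 ± 0.04 (SE, adjusted p = 4.34e-10). CCND3, another D-type cyclin, fell by 0.68 on the log2 scale. Exons of CDK4 overlap those of TSPAN31 on the other strand over 44.2% of their length. The counting strand is unknown, so the CDK4 values may hold reads of TSPAN31.

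Among the 20 tested members of the G1 cyclin, CDK and RB axis, 12 fell, 2 rose and 6 did not pass the adjusted p, and their median log2 fold change was -0.62 against 0.00 over all genes tested. The 2 that rose were CCND1 and RBL2, which encodes the pocket protein p130 of resting cells (0.50). RB1 itself fell by 0.36. The largest fall was that of CCNE2, a cyclin E that drives CDK2 at S phase entry, which read 31.7, 26.8 and 22.8 normalised counts with atirmociclib and 525, 722 and 682 with vehicle. The 2 groups were far apart, with a log2 fold change of -4.52 ± 0.25 (adjusted p = 6.23e-11). Exons of CCNE2 overlap those of INTS8 and another gene on the other strand over 37.1% of their length. CCNE1, the other cyclin E, fell by only 0.57. FBXO5, which encodes the EMI1 inhibitor of the anaphase-promoting complex, fell by 3.05, and CDKN2C, an inhibitor of CDK4 and CDK6, fell by 2.93. The CDK inhibitors CDKN1A (p21) and CDKN1B (p27) did not pass the threshold, with log2 differences of -0.18 (adjusted p = 0.148) and -0.13 (adjusted p = 0.173).

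Some of the E2F factors fell. The activators E2F1 and E2F2 and the late repressors E2F7 and E2F8 had log2 fold changes of -1.69, -3.31, -3.66 and -4.52, all past the test. E2F1 stood at 286, 312 and 336 normalised counts with atirmociclib and at 970, 984 and 1069 with vehicle, without overlap. The activator E2F3 (-0.09), E2F4 (0.02) and E2F5 (0.28) did not pass the threshold. With TFDP1, the DP partner of the E2Fs (-0.29), 5 of the 10 tested E2F and DP genes fell and none rose.

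Genes of DNA replication fell nearly as a block. Of 51 members tested, 45 fell, 1 rose and 5 did not pass, with a median log2 fold change of -1.41. CLSPN, which encodes claspin of the replication fork and its checkpoint, read 70.3, 55.8 and 53.5 with atirmociclib against 1555, 1530 and 1498 with vehicle. That is a log2 fold change of -4.66 ± 0.14 (adjusted p = 1.66e-14), with no overlap. MCM10 and CDC45, which act in the activation of the replicative helicase, fell, with log2 fold changes of -3.34 and -3.18. The 6 subunits of the helicase itself, MCM2 to MCM7, fell, with log2 fold changes from -0.99 (MCM3) to -2.07 (MCM4). The members that did not pass were ORC2, ORC3, ORC4 and ORC5 of the origin recognition complex and RPA1, and the member that rose was POLD2, a subunit of DNA polymerase delta (0.14).

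The supply of DNA precursors showed a divided pattern. Of 16 tested genes of deoxynucleotide synthesis, 10 fell and 4 rose, and the median was -0.48. RRM2, the S phase subunit of ribonucleotide reductase, was at 204, 211 and 131 with atirmociclib and at 3728, 3797 and 4113 with vehicle, a log2 fold change of -4.43 ± 0.17 (adjusted p = 4.46e-13). TYMS (thymidylate synthase) and TK1 (thymidine kinase) fell, by log2 fold changes of -2.88 and -2.27. Exons of TYMS overlap those of ENOSF1 and TYMSOS on the other strand over 47.9% of their length. RRM2B, the ribonucleotide reductase subunit used outside S phase, rose by 0.59, as did the purine synthesis genes ATIC (0.30), IMPDH2 (0.27) and PAICS (0.13).

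Replication-dependent histones, whose messages are made in S phase to package new DNA, had the lowest median of the 23 lists. Of 61 genes found, 52 were tested, 49 fell and none rose, with a median of -2.82. The linker histone H1-5 read 188, 219 and 192 normalised counts with atirmociclib and 9112, 8968 and 8635 with vehicle, which gave -5.47 ± 0.12 (adjusted p = 4.52e-16). Each of the 5 classes fell: 3 of 3 H1 genes, 14 of 15 H2A, 13 of 13 H2B, 10 of 11 H3 and 9 of 10 H4 genes fell. Summed over the H3 genes the libraries held 2569, 2433 and 2319 with treatment and 28648, 26288 and 26793 with vehicle. H2BC14, H2AC16, H2BC11 and H2BC17 fell, with log2 fold changes of -5.41, -4.79, -4.71 and -4.71. The members that did not pass were H3C14 (-5.46, adjusted p = 0.0845), H4C12 (-0.50, adjusted p = 0.88) and H2AC19 (1.97, adjusted p = 0.662). The library kit takes total RNA, and most of these messages lack a poly(A) tail.

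A pair of H4 genes had to be read together. In GENCODE 44, 97.5% of the 50-base words in the transcripts of H4C14 also occur in those of H4C15, so the assignment of reads between them is uncertain. H4C14 alone read 786, 19.6 and 2.95 with atirmociclib and H4C15 alone 36.1, 767 and 613, with high values in opposite libraries. Their sums were 822, 787 and 616 against 13203, 11037 and 11449 with vehicle, a log2 difference of -4.01. The values for each gene alone, -6.88 ± 2.31 and -4.76 ± 1.42, carry that uncertainty.

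Of 76 genes of G2 and mitosis, 74 fell, none rose and only LIN37 and LIN52, core subunits of the MuvB complex, did not pass. The median was -2.27. KIF20A, a kinesin of the central spindle, read 105, 112 and 48.4 with atirmociclib and 1641, 1735 and 1584 with vehicle (-4.30 ± 0.22, adjusted p = 1.97e-11). AURKB, the kinase of the chromosomal passenger complex (-4.11), CCNA2, which encodes cyclin A2 (-3.80), and PLK1, a mitotic kinase (-3.21), fell too. MKI67, the source of the proliferation antigen Ki-67, stood at 794, 657 and 626 against 9181, 9371 and 8954 (-3.73 ± 0.08, adjusted p = 4.52e-16). The mitotic cyclins B were lowered less, with CCNB1 at -1.17 and CCNB2 at -1.52, and FOXM1 fell by 1.88. DNA repair genes moved the same way, with 32 of 39 lower and none higher (median -1.37). The exonuclease EXO1 and the checkpoint kinase CHEK1 fell, with log2 fold changes of -3.24 and -3.12.

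Promoters of 4 genes are printed to show the words found upstream of an E2F gene, a mitotic gene and a histone gene that fell, and of PLOD2, the hypoxia-inducible gene with the largest rise. Each is the stretch just before the RefSeq start on GRCh38.p14, written 5′ to 3′ along the gene. Capitals mark TTTGGCGC (E2F1, an E2F-type word), TTTGAA and CCAAT (MKI67), ATTTGCAT and CCAAT (H2BC14) and ACGTG (PLOD2), on either strand.
E2F1 (chr20:33686386-33686485, minus strand): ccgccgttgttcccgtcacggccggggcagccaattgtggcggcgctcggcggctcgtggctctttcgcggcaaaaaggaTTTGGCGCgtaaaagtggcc
MKI67 (chr10:128126424-128126533, minus strand): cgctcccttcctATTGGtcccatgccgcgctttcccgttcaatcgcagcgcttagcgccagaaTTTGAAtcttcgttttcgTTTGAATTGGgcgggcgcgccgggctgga
H2BC14 (chr6:27814892-27815021, plus strand): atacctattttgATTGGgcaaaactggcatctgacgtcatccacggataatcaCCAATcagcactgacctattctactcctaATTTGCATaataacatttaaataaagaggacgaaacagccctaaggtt
PLOD2 (chr3:146161185-146161394, minus strand): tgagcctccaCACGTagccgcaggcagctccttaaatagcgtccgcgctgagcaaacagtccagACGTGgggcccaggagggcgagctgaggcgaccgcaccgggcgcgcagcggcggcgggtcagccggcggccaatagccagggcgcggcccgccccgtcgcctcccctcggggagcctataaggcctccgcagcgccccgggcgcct

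In the MKI67 window the second TTTGAA and the last CCAAT (read as ATTGG) share 1 base. The words were counted on both strands in windows from 250 bases before to 50 bases after the start, for the 11516 tested genes with a RefSeq promoter. Any of TTTCCCGC, TTTGGCGC, TTCCCGCC, TTTCGCGC, TTCGCGCC and TTGGCGCC, words that can overlap one another, occurred in 10.5% of these promoters, in 6.48% of all 27305 promoters of the same length, in 23.6% of the 560 called lower and in 6.02% of the 133 called higher. In the DNA replication list the share was 59.1% of 44 promoters. TTTGAA together with CCAAT occurred in 48.5% of 66 promoters of the G2 and mitosis list against 4.19% of those tested and 6.08% of all. ATTTGCAT occurred in 44.7% of 47 histone promoters against 1.52% and 1.80%, and ACGTG in 49.1% of 53 promoters of the hypoxia list against 26.6% and 21.6%. ACGTG was not more common among the genes called higher (23.3%) than among those called lower (23.6%), and it occurred in 36.4% of the G2 and mitosis list. These shares describe letters in fixed windows and are not counts of bound sites.

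The machinery of transcript elongation was examined as a list of its own, since CDK9 pairs with cyclin T as P-TEFb to release paused RNA polymerase II. Of 26 members tested, 7 fell, 6 rose and 13 did not pass, with a median of -0.04. Since 16.2% of all genes tested fell and 18.6% rose, no movement of the list as a whole is read from these counts. HEXIM1, which holds P-TEFb inactive together with the 7SK RNA, was the only member past the fold threshold. It read 427, 441 and 497 normalised counts with atirmociclib and 1331, 1201 and 1356 with vehicle. The groups did not overlap, and HEXIM1 fell, with a log2 fold change of -1.51 ± 0.06 (adjusted p = 1.61e-12), while its paralogue HEXIM2 was low and did not pass (-0.16, adjusted p = 0.586). MEPCE, which caps and stabilises 7SK, fell by 0.65 and LARP7, another 7SK-binding protein, did not pass (-0.13, adjusted p = 0.132). POLR2A, the largest subunit of RNA polymerase II, fell from 6294, 6294 and 6515 to 3465, 3808 and 3597 (-0.81 ± 0.04, adjusted p = 5.95e-11). CDK9 itself rose by 0.33 (adjusted p = 0.0145), and its call was lost with equal library totals (adjusted p = 0.0601), without treated replicate 3 (adjusted p = 0.0567) and without vehicle replicate 2 (adjusted p = 0.0793). CDK7, the kinase of TFIIH, rose by 0.65. Exons of HEXIM1 overlap those of HEXIM2-AS1 on the other strand over 14.3% of their length. For HEXIM2 the overlap with genes on the other strand is 79.3%. The counting strand is not given in the sources used here.

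Of 48 tested immediate early and short-lived transcripts, 11 rose, 10 fell and 27 did not pass, with a median of 0.13. Over all genes tested 18.6% rose and 16.2% fell. KLF2, IER5 and DUSP4, all early response genes, fell (-1.51, -0.99 and -0.87), and SPRY4, a feedback inhibitor of growth factor signalling, rose by 1.15. MYC rose by 0.21 (adjusted p = 0.0142), a call that was lost with quantile normalisation (adjusted p = 0.14), with equal totals (adjusted p = 0.11), without treated replicate 1 (adjusted p = 0.0676) and without vehicle replicate 2 (adjusted p = 0.0663). MCL1, a short-lived survival factor, rose by 0.28. FOS scattered from 7.59 to 97.4 with atirmociclib and did not pass (adjusted p = 0.338).

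Androgen response genes were higher more often than lower. TMPRSS2, an androgen-induced serine protease gene, read 15163, 13587 and 12759 with atirmociclib and 5672, 6056 and 5691 with vehicle. The groups were far apart, and TMPRSS2 rose by 1.25 ± 0.07 (adjusted p = 5.5e-11). KLK3, which encodes prostate-specific antigen, stood at 32870, 30665 and 27660 against 23132, 24802 and 22731 and rose by 0.37 (adjusted p = 2.51e-05).

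Over the androgen response list, 50 of 85 tested members rose, 10 fell and 25 did not pass, beside 18.6% higher and 16.2% lower over all genes tested. The median of the list was 0.27, and it was 0.20 with equal totals and 0.24 after quantile normalisation. By the size of change NDRG1 (1.58), BMPR1B, a BMP receptor (1.42), and MAF, a leucine zipper factor (1.35), led. NDRG1 is also on the hypoxia list and its rise differed between the treated libraries, whereas BMPR1B (1441, 1403 and 1561 against 628, 502 and 524) and MAF (1907, 1850 and 1964 against 738, 795 and 711) did not. The kallikrein genes KLK2 and KLK4 rose by 0.48 and 0.45. FKBP5, an androgen-induced chaperone, rose by only 0.14 (adjusted p = 0.0301), and without treated replicate 3 it did not pass (adjusted p = 0.144). GATA2, a luminal transcription factor, rose by 0.33. All 8 luminal markers rose (median 0.38).

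Some of the UGT2B enzymes attach glucuronic acid to androgens for removal. All 6 UGT2B genes that were tested fell, with a median of -2.76. UGT2B15 read 448, 433 and 433 with atirmociclib and 3308, 3278 and 2881 with vehicle (-2.84 ± 0.09, adjusted p = 5.59e-14), and UGT2B17 (-1.77), UGT2B11 (-3.67) and UGT2B28 (-3.78) fell as well. These genes are near copies: 27.1% of the 50-base words of UGT2B15 and 36.1% of those of UGT2B11 occur in transcripts of other genes. Changes of single members are therefore uncertain. Each of the 6 was lower in every treated library than in any vehicle library, but this cannot settle single members, since copies that share reads can fall together.

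Hypoxia-inducible genes, the targets of HIF factors that serve glycolysis, lactate export and vessel growth, had the highest median of the lists, 0.42. Of 63 tested members 33 rose, 1 fell and 29 did not pass, beside 18.6% higher and 16.2% lower over all genes tested. Treated replicate 3 was above every vehicle library in 22 of the 33 members that rose, and replicates 1 and 2 in all 33. These 33 were picked by their rise in the same libraries, which favours high values in replicates 1 and 2, so the counts are a description only. PLOD2, a collagen-modifying lysyl hydroxylase, read 570, 427 and 44.7 normalised counts in treated replicates 1, 2 and 3, and 2.08, 24.1 and 13.3 in vehicle. Replicate 3 was above all vehicle libraries but far below the other treated ones. The fitted log2 fold change was 4.43 ± 0.73 (adjusted p = 0.000115) and 5.58 without replicate 3 (adjusted p = 6.63e-07).

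NDUFA4L2, a HIF-induced mitochondrial protein, followed the same pattern at 2497, 1869 and 201 against 41.1, 113 and 70.3 (3.81 ± 0.69, adjusted p = 0.000268, and 4.95 without replicate 3). SLC16A3, the lactate exporter MCT4, read 181, 222 and 33.1 against 11.8, 8.07 and 11.5 (3.30 ± 0.52, adjusted p = 7.63e-05, and 4.15 without replicate 3). In each of these 3 genes treated replicate 3 lay between the vehicle libraries and the other treated ones. For other members it fell back into the vehicle range or below it. VEGFA, the vessel growth factor, read 5813, 4438 and 1944 against 2035, 2287 and 1974. ENO2, a glycolytic enolase, read 733, 652 and 106 against 128, 222 and 196. In both of these genes treated replicate 3 was lower than every vehicle library, and neither passed with all libraries (adjusted p = 0.0752 and 0.153). Without replicate 3 both passed, with log2 fold changes of 1.28 (adjusted p = 0.00372) and 1.96 (adjusted p = 0.00145). BNIP3, a mitophagy receptor, and NDRG1, a stress-induced protein, were highest in replicates 1 and 2 and remained above vehicle in replicate 3, at 3527 against at most 3007 and at 2412 against at most 1651.

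**Figure D2:**
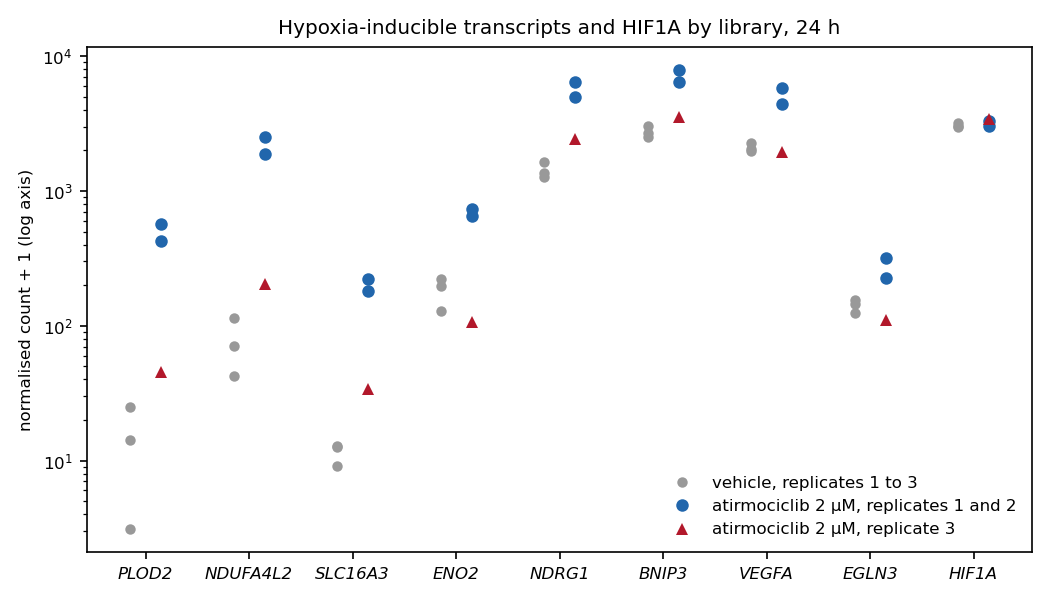
Normalised count + 1 (log axis) of 8 hypoxia-inducible genes and HIF1A in each vehicle library (grey) and each atirmociclib 2 µM library (blue, replicates 1 and 2; red triangle, replicate 3). Treated replicate 3 lies below replicates 1 and 2 in all 8 targets and at or below the vehicle libraries in ENO2, VEGFA and EGLN3, while HIF1A lies between 2981 and 3389 in all 6 libraries.

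Over the whole list, treated replicate 3 was the lowest treated library in 54 of 63 members, replicate 1 in 1 and replicate 2 in 8, whereas over all genes tested replicate 3 was lowest in 33.9%. The median log2 difference of the list from the vehicle mean was 0.64, 0.43 and 0.03 in treated replicates 1, 2 and 3. The other libraries of 24 h with a CDK4 inhibitor lay between 0.25 and 0.65. The summed normalised count of the list was 341185, 306274 and 235909 in the treated libraries and 214670 to 227258 in vehicle. HIF1A, whose protein rather than RNA usually responds to oxygen, was at 3041, 3278 and 3389 against 3214, 2981 and 3055 (0.07, adjusted p = 0.419). The antisense transcript HIF1A-AS3 read 160, 93.5 and 28.5 against 0.689, 17 and 0 (4.62 ± 0.78, adjusted p = 0.000146). Leaving out treated replicate 3 raised the number of list members that rose from 33 to 45, and leaving it out changed the DNA replication list only from 45 to 44 lower. The labels give replicate 3 of every group the same batch number and record nothing else that sets this library apart, and the cause was not tested.

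The departure of replicate 3 was also counted over all genes. A library was taken to depart in a gene where its log2 value differed from both other replicates by at least 1 in the same direction while those differed by less than 0.5, with a group mean of at least 50. Treated replicate 3 departed downward in 30 genes and upward in 10. The other 17 libraries of 24 h departed downward in 3 to 18 genes and upward in 5 to 16. Of the 30 genes 8 were on the hypoxia list: PLOD2, NDUFA4L2, ENO2, SLC16A3, VEGFA, EGLN3, PFKP and NDRG1. That list holds 63 of the 16137 genes tested, and 12279 genes had a mean of at least 50 in this group. ENSG00000289316, also among the 30, shares 753 exonic bases with NDRG1 on the same strand. The list was written with earlier results of these data known, and the 30 include copied genes given below. The count of 8 is therefore a description only. Replicate 3 was below every vehicle library in 22 of the 30, within their range in 2 and above it in 6. Among the others, ANGPT2, an angiopoietin of blood vessels, read 104, 115 and 20.5 against 27.4, 43.7 and 30.6, and DHRS3, a retinal reductase, read 154, 129 and 28.9 against 48.5, 45.3 and 33.3. In the upward direction CEP152, a centrosome scaffold, read 124, 146 and 595 against 505, 632 and 486, so that replicate 3 lay within the vehicle range and replicates 1 and 2 did not. The log2 fold change of CEP152 was -1.28 (adjusted p = 0.0143) and -1.99 without replicate 3, and its adjusted p ran to 0.0975 without treated replicate 1. KIF20A, given above at 105, 112 and 48.4, was also among the 30.

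The 2 largest gaps were tied to copied genes. NXF2 read 186, 216 and 0 and FAM156B 288, 340 and 4.54 in the treated libraries, but 99.9% of the words of NXF2 and all of those of FAM156B occur in another gene. Summed with NXF2B the values were 190, 216 and 176, and FAM156A with FAM156B gave 554, 474 and 409.9, so neither pair departed by the rule. RASA4B shares 81.9% of its words with relatives, and its sum with RASA4 was 119, 112 and 53.6.

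**Figure D3:**
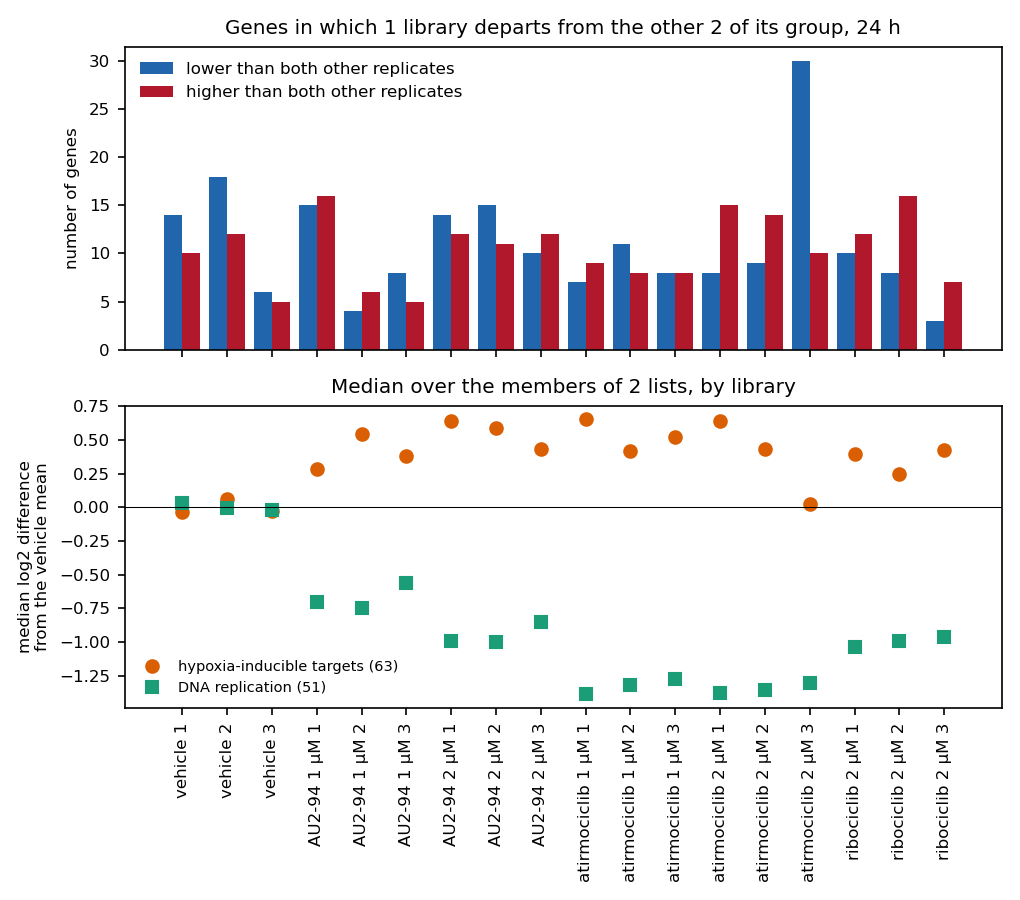
Upper panel, number of genes in which each of the 18 libraries of 24 h departs downward (blue) or upward (red) from the other 2 of its group, with 30 downward in atirmociclib 2 µM replicate 3 and at most 18 elsewhere. Lower panel, median log2 difference from the vehicle mean of the hypoxia (circles) and DNA replication (squares) lists by library, where that library is at 0.03 for the first and at -1.31 for the second, close to the other replicates of its group.

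The remaining leading rises were of varied function. COL12A1, a fibril-associated collagen, read 90.6, 70.1 and 30.6 against 4.66, 9.15 and 10.8 (2.75 ± 0.42). CSRNP3, a nuclear factor, read 70.0, 43.9 and 55.8 against 12.4, 7.70 and 9.42 (2.41 ± 0.36). NRG3, a neuregulin ligand, read 56.1, 65.0 and 53.7 against 19.9, 5.35 and 15.5 (2.19 ± 0.33). These 3 showed no overlap between the groups. UNC80, part of the NALCN sodium leak channel, and OBSL1, a cytoskeletal adaptor, rose by 2.59 and 2.20. SCNN1G, a subunit of the epithelial sodium channel, read 185, 117 and 7.59 against 13, 13.8 and 5.32, so replicate 3 fell within the vehicle range, and its adjusted p ran from 3.23e-05 without that replicate to 0.16 without treated replicate 1.

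Metabolic lists rose by small amounts, and their counts stand beside 18.6% higher and 16.2% lower over all genes tested. Of 63 tested oxidative phosphorylation genes 46 rose, with a median of 0.22 that was 0.14 with equal totals and 0.20 after quantile normalisation. Each change was slight: COX7C, COX4I1 and NDUFC2, subunits of the respiratory complexes, rose by 0.36, 0.35 and 0.38, and SDHA fell (-0.33). Of 13 mitochondrially encoded genes 11 rose (median 0.24), but this median was 0.16 with equal totals and 0.00 after quantile normalisation, which removed the calls of MT-CO1, MT-CO2 and MT-ND1. Mitochondrially encoded transcripts took 7.28% to 7.70% of the treated totals and 6.45% to 6.6% of the vehicle totals. In cholesterol synthesis 23 of 37 rose and 4 fell (median 0.25). SCD, a fatty acid desaturase, rose by 0.80, STARD4, a sterol carrier, by 0.94, and HMGCS1, an enzyme of the mevalonate pathway, by 0.62, while ABCA1, the cholesterol exporter, fell by 1.78. Of 40 lysosome and autophagy genes 19 rose and 3 fell (median 0.18), and 2 of those that fell, MITF (-0.82) and TFEB (-0.77), encode transcription factors of lysosomal genes.

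The lists of stress and growth arrest are given beside shares of 18.6% higher and 16.2% lower over all genes tested. Of 39 p53 targets 8 rose and 12 fell (median -0.07). SESN1, a sestrin, read 2615, 2787 and 2704 against 1250, 1166 and 1133 and rose by 1.19 ± 0.06, while DDB2, a sensor of DNA damage, fell by 1.24. Of 40 ER stress and ATF4 targets 15 rose and 13 fell, with SLC7A5, an amino acid transporter, lowest (-1.56). Of 12 tested senescence and secreted genes 5 fell and 1 rose. Among these LMNB1, which encodes lamin B1 (-2.05), HMGB2, a chromatin protein (-3.33), and CDKN2A, the source of p16 and ARF (-0.50), fell. Of 14 BCL2 family genes 4 rose, such as BCL2L1 (0.39), and 6 fell, such as BMF (-1.27), PMAIP1 (-0.86) and BCL2 (-1.12). The call of BCL2, whose treated libraries ran from 56.5 to 172, was lost without treated replicate 1 (adjusted p = 0.0774), without vehicle replicate 2 (adjusted p = 0.0647) and with only these groups in the fit (adjusted p = 0.0503). Of 41 interferon and antigen presentation genes 9 rose and 7 fell, near those shares, with OAS3, a sensor of double-stranded RNA, lowest (-2.44). Of 70 ribosome biogenesis and MYC targets 21 rose and 7 fell (median 0.07).

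The 2 doses of atirmociclib were compared directly. No gene was called between 2 and 1 µM by limma, 2 genes (0.0124%) passed the adjusted p, and 1431 of 16137 had an unadjusted p under 0.05. The 95% interval of the dose difference lay within ±1 on the log2 scale for 81.8% of genes and within ±0.5 for 61.2%, and for the remaining genes the interval reached past these sizes. Among the 981 genes called against vehicle it lay within ±1 for only 60.7%. The median dose difference was -0.12 for those called lower and -0.05 for those called higher. HEXIM1 was 1 of the 2 genes that passed the adjusted p, and these 2 were named after their values were seen. It read 637, 609 and 648 at 1 µM and 427, 441 and 497 at 2 µM, with 1331, 1201 and 1356 in vehicle. All 3 groups were separate, and the dose difference was -0.48 ± 0.06 (adjusted p = 0.00612). The other was AHCTF1, which encodes the nuclear pore protein ELYS, at 3441, 3562 and 3583 at 1 µM against 4766, 5215 and 4666 at 2 µM and 5238, 4660 and 4833 in vehicle, so that the higher dose was at the vehicle level (0.47 ± 0.06, adjusted p = 0.00612). Of the words in AHCTF1 transcripts 43.9% occur in other genes, mainly a pseudogene. PLOD2 and NDUFA4L2 had dose differences of -0.97 and -1.11 with intervals from -2.50 to 0.57 and from -2.56 to 0.33, and at 1 µM all 3 libraries were high (375 to 497 for PLOD2).

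At the matched dose of 2 µM and time of 24 h, atirmociclib was set against AU2-94 and ribociclib, 2 pairs of compounds that share the atirmociclib libraries. Against AU2-94, 6 genes were called higher with atirmociclib (0.0372%) and 148 lower (0.917%), and by the adjusted p alone 827 were higher (5.12%) and 696 lower (4.31%). Against ribociclib, 7 were called higher (0.0434%) and 61 lower (0.378%), and by the adjusted p alone 296 were higher (1.83%) and 453 lower (2.81%). CLSPN, which atirmociclib had lowered against vehicle, read 70.3, 55.8 and 53.5 with atirmociclib, 321, 342 and 341 with AU2-94 and 260, 205 and 257 with ribociclib. The differences were -2.47 ± 0.14 and -1.99 ± 0.14 (adjusted p = 2.6e-09 and 9.69e-08). H1-5 (-2.60 and -2.22), CCNE2 (-2.24 and -2.31) and H2BC14 (-2.30 and -1.88) also separated without overlap. All these genes were still below vehicle with each compound.

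By list, 42 of 52 histone genes were lower with atirmociclib than with AU2-94 and 43 lower than with ribociclib, with medians of -0.92 and -0.74. For DNA replication 29 and 22 of 51 were lower (medians -0.40 and -0.34), and for G2 and mitosis 39 and 39 of 76 (medians -0.40 and -0.48). HEXIM1 was lower with atirmociclib than with AU2-94 (1177, 1210 and 1156), with a log2 difference of -1.38 ± 0.06, and than with ribociclib (1157, 1185 and 1177), with -1.37 ± 0.06. The 95% intervals of these differences ran from -1.51 to -1.24 and from -1.50 to -1.23. In the androgen response list 11 of 85 members were higher and 10 lower than with AU2-94 (median -0.01), and 2 were higher and 14 lower than with ribociclib (median -0.09). The hypoxia list had a median of -0.23 against AU2-94 and 0.06 against ribociclib, and of -0.01 and 0.30 without treated replicate 3. UGT2B15 was at 412, 387 and 342 with AU2-94 and at 311, 376 and 369 with ribociclib, and neither difference passed (0.21, 95% interval 0.01 to 0.40, and 0.32, 0.12 to 0.51).

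Among genes higher with atirmociclib, CTNNA3, an alpha-catenin, read 139, 25.6 and 76.5 against 18.3, 3.34 and 12.9 with AU2-94 (2.65 ± 0.62, adjusted p = 0.0111). ADCY7, an adenylate cyclase, read 65.6, 69.9 and 57.8 against 40.1, 26.1 and 18.4 with ribociclib (1.23 ± 0.27, adjusted p = 0.0105), and 41.8% of its exonic length overlaps BRD7 on the other strand. In both genes the groups did not overlap, and neither differed from vehicle past the threshold. CHST11, a chondroitin sulfotransferase, read 12.5, 6.03 and 7.41 against 120, 22.4 and 75.2 with ribociclib (-2.70 ± 0.62, adjusted p = 0.0166).

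**Figure D4:**
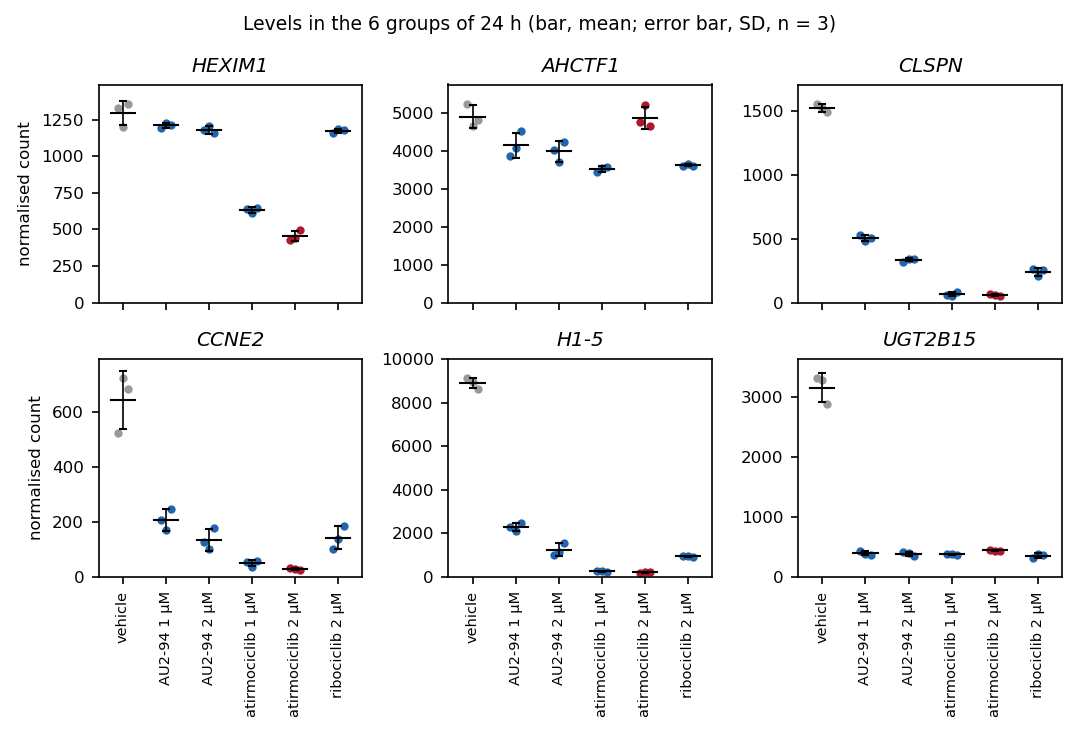
Normalised counts of 6 genes in the 3 libraries of each group of 24 h (points; bar, mean; error bar, SD; axes from 0). HEXIM1 is low only in the 2 atirmociclib groups and lower at 2 µM than at 1 µM, CLSPN, CCNE2 and H1-5 are lowest with atirmociclib, UGT2B15 is low with every compound, and AHCTF1 at 2 µM is at the vehicle level.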

How the data were processed

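RNA from LNCaP cultures was sequenced with a total RNA kit with 12 cycles of amplification. The authors' processing notes name STAR 2.6.1d, DESeq2 and GRCh38 (hg38), and the deposited values are a normalised signal per gene, one column per library. The annotation, the counter and its strand setting are not given in the sources used here. Among other genes named, exonic overlap with genes on the other strand was, for example, 41.3% for BCL2L1 and 37.7% for HMGCS1. Low values fell on whole multiples (tolerance 0.005, values under 5) in only 6.61% to 41.5% of cases, so reads were not recovered, depth is unknown and no count test was run.

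Values were taken as log2(value + 1), which understates changes of low genes. Genes reaching 10 in 3 or more of the 18 libraries of 24 h were kept (16137 of 29872) and fitted with limma 3.58.1 (R 4.3.3; eBayes with trend, 1 term per group). P-values were two-sided and Benjamini-Hochberg adjusted over all genes within each comparison. Tables and figures used Python 3.11.15, pandas 2.3.3, scipy 1.17.1 and matplotlib 3.10.9, and the fit was tested on simulated data. Gene positions and shared 50-base words came from GENCODE 44, promoters from RefSeq.

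Gene lists and members were chosen with earlier results of these data known. Genes named were a fixed set of CDK4, E2F, CDK9 and androgen response genes, the 10 called genes with the largest rise and fall (mean of at least 50), the 3 past the test with the largest change per list, the 5 largest each way against other treatments and 10 in which replicate 3 departed. Other list members, the genes of the dose comparison and those of the closing section were named after their values were seen. The batch field of the labels holds the replicate number, which pairs the libraries across groups, while deviations of same-numbered libraries correlated by a mean r of 0.00 (-0.09 to 0.11, 45 pairs), and the block was an alternative. Alternatives changed the pseudocount, filter, normalisation, block, trend, fitted libraries and each replicate in turn. A few genes and 1 list are not reported here.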

Additional observations from a re-analysis of the deposited data

How the results depend on the processing

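Against vehicle, 203 genes higher and 778 lower became 115 higher with a pseudocount of 8 and 64 higher and 409 lower among genes with a mean of at least 100, where fewer genes were tested. Leaving out single replicates gave 165 to 220 higher and 681 to 764 lower, and the share lower was 66.1% after quantile normalisation. Against 1 µM, 1 gene was called lower when only these groups were fitted, and 0 to 1 without single replicates. Against AU2-94, 6 higher became 3 (pseudocount 8), 17 (no filter), 0 (mean of at least 100), 14 (quantile normalisation), 1 (only these groups) and 4 to 10 without single replicates, the highest without AU2-94 replicate 1. The 148 lower became 62 (mean of at least 100), 77 (quantile normalisation), 83 (only these groups) and 116 to 167 without single replicates. Against ribociclib, 7 higher became 4 (pseudocount 8), 0 (mean of at least 100), 4 (only these groups) and 1 to 9 without single replicates, the lowest without ribociclib replicate 1. The 61 lower became 37 (mean of at least 100), 39 (only these groups) and 54 to 61. The 30 genes lower in treated replicate 3 became 11 with a gap of 1.5 and 11 with a group mean of 200. Apart from the filter, where fewer genes were tested, the cause was not tested.

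With the replicate block 196 genes were higher and 772 lower than vehicle. The block, taken from the batch field of the labels, moved no count by over 1.5 times and changed no call of the 109 genes below. Calls did change among other genes given above. With the block PAICS no longer passed (adjusted p = 0.0534), and LIN52 did pass as lower (-0.34, adjusted p = 0.0336). For the 109 named genes under 16 settings, 1672 values kept their direction and side of the threshold, 36 lost it, 11 gained it and none reversed. Depth is unknown, so the precision of low genes rests on the replicates alone.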

Other observations

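Cytosolic ribosomal protein genes, a family chosen after the values were seen, rose by small amounts. Of 79 tested, 77 passed the adjusted p in the upward direction and none downward, with log2 fold changes from 0.07 to 0.64 and a median of 0.38. The median was 0.31 with equal library totals, where 75 passed, 0.20 after quantile normalisation, where 59 passed, and 0.42 without treated replicate 3, where 75 passed.

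Neighbours on chromosome 9 rose together with RLN1 and RLN2, which encode relaxins, in a region also chosen after the values were seen. Of the 11 genes tested within 500000 bases of RLN1, 8 rose and 3 did not pass, beside 18.6% higher over all genes tested. The 8 include RLN1 and RLN2, whose values led to the choice of the region. RCL1, JAK2 and RIC1 are also among them and rose by only 0.52, 0.42 and 0.39. RLN1 read 898, 851 and 832 normalised counts with atirmociclib and 222, 202 and 265 with vehicle (1.91 ± 0.08, adjusted p = 2.16e-12). RLN2 rose by 2.07, PLGRKT, a plasminogen receptor, by 1.28 and CD274, which encodes the immune checkpoint ligand PD-L1, by 1.67. CD274 read 233, 244 and 125 against 74.4, 30.4 and 93.9, without overlap. RLN1 and RLN2 share 15% and 15.9% of their 50-base words, and their sums were 1051, 1047 and 973 against 263, 240.5 and 300.2.

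GDF15, a stress-induced cytokine, read 14733, 9586 and 3931 against 5126, 6170 and 6109 and did not pass (adjusted p = 0.409), with treated replicate 3 below every vehicle library and replicates 1 and 2 above all of them.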
